A study of Mus musculus with 37 samples.

Results

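Genes of the epidermal growth factor (EGF) family were followed through 3 RNA sequencing experiments on mouse jejunal organoids. The 10 genes were chosen by symbol, with earlier results of these data known. They are the ligands Areg, Ereg, Hbegf, Tgfa and Btc, the receptors Egfr, Erbb2 and Erbb3, and the feedback inhibitors Lrig1 and Errfi1. All 10 were found in each of the 3 count tables, which hold 27407 genes for whole organoids, 20500 for sorted cells and 27547 for sorted cells of the irradiation experiment.

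Organoids were grown from jejunal crypts in medium with R-Spondin-1, Noggin and recombinant murine EGF (50 ng/mL), which all groups received. Whole organoids came from C57Bl/6 mice and were left untreated (3 mice) or given 100 nM of the neuropeptide VIP (vasoactive intestinal peptide) for 72 h (4 mice). In a second experiment, Lgr5-EGFP+ cells were sorted from organoids of 4 Lgr5-EGFP-IRES-CreERT2 mice, which carry EGFP at the Lgr5 locus and so mark stem and progenitor cells, untreated or after 72 h of 100 nM VIP. In the third, Lgr5-EGFP+ cells were sorted from organoids of 4 mice, untreated or given 100 nM VIP for 48 h. Each of these came without irradiation and after 6 Gy of X-rays. As the authors describe it, VIP was started after the irradiation, so VIP-treated cells had no VIP before the dose. Irradiated and unirradiated samples of a mouse are separate samples. The animals were adults of 6 to 12 weeks. Each number in the labels is 1 mouse and its organoid line, so treated and untreated samples of a mouse were paired, and the mice of the 3 experiments are different animals.

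EGF family ligands are made as membrane-anchored precursors that proteases such as ADAM17 release. Areg, Ereg, Hbegf, Tgfa and Btc bind the receptor tyrosine kinase Egfr, some of them also Erbb4, and the ligand-bound receptor pairs with itself, with Erbb2, which has no ligand of its own, or with Erbb3, and signals through Ras, the MAP kinases ERK and PI3 kinase. Lrig1 promotes the degradation of ErbB receptors and Errfi1 (Mig6) inhibits their kinase domain. Crypt base stem cells need EGF receptor signalling for proliferation, and Lrig1 is also known as a marker of intestinal stem and progenitor cells. VIP acts on epithelial cells mainly through the receptor VPAC1, encoded by Vipr1, which raises cAMP, and the cAMP-responsive factor CREB binds the element TGACGTCA.

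Areg, Ereg and Btc are neighbours on mouse chromosome 5. In the GRCm38 annotation Ereg lies at chr5:91074622-91093646 and Areg at chr5:91139599-91148432, both on the plus strand, and Btc at chr5:91357261-91402994 on the minus strand. Gaps of 46.0 kb between Ereg and Areg and 208.8 kb between Areg and Btc held 0 other protein-coding genes. Tgfa (chr6:86195223-86275719, plus), Egfr (chr11:16752203-16918158, plus), Erbb2 (chr11:98412470-98437716, plus), Erbb3 (chr10:128567523-128589652, minus), Lrig1 (chr6:94604529-94700158, minus) and Errfi1 (chr4:150853919-150868892, plus) lie elsewhere. Erbb2, Egfr, Tgfa, Ereg, Lrig1 and Errfi1 overlap annotated genes on the other strand, and whether the counting used strand was not given in the sources used here.

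The RefSeq promoter table held 7 of the 10 genes, with 8 windows. In the 250 bases before the transcript start, the CREB element TGACGTCA, which reads the same on both strands, occurred in 2 of the 8 windows, those of Areg and of the downstream start of Errfi1, and in 1.55% of all 32851 promoter windows of that length. The AP-1 motif TGAGTCA, searched on both strands, occurred in 0 of the 8 windows and in 4.46% of all windows. The windows of the 2 genes with the element are printed below 5′ to 3′ on the strand of the gene with the element in capitals, together with that of Btc, the neighbour of Areg, in which it does not occur. The Areg window ends 1 base before the gene (chr5:91139349-91139598, plus strand, GRCm38), and the Btc window is chr5:91402995-91403244 (minus strand). The Errfi1 window is chr4:150854820-150855069 (plus strand), inside the annotated span of the Errfi1 gene. A match of letters does not show that a factor binds there.
Areg: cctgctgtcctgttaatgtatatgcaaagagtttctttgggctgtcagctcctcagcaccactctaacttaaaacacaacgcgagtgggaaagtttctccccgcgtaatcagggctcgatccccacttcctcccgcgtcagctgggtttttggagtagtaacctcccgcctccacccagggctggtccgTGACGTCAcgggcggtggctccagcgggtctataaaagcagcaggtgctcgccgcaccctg
Errfi1: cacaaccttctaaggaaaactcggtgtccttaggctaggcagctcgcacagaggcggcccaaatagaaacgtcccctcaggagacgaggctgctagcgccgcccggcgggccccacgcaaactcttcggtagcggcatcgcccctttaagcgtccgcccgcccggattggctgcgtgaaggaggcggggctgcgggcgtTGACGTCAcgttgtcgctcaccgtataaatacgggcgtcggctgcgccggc
Btc: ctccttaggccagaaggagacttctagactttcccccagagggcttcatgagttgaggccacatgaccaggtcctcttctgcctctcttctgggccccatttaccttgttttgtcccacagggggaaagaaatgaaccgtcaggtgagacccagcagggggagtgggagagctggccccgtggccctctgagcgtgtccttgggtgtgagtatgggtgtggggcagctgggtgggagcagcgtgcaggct

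Each sample was sequenced from the 3′ ends of its transcripts, with molecular identifiers (UMIs) that count a captured molecule once. Samples held 3722716 to 6330404 UMIs in whole organoids, 575242 to 1104126 in the sorted cells and 1075715 to 1876729 in the irradiation experiment. Levels are given in CPM, the UMIs of a gene for every 1000000 UMIs of its sample. Because a molecule is counted once at its 3′ end, they are not divided by transcript length, and capture can still differ between genes. The epithelial markers Epcam, Cdh1, Vil1, Krt8 and Krt18 summed to 2811 to 4818 CPM over all samples, while the summed mesenchymal markers were at most 2.56 CPM, the endothelial at most 2.99 CPM and the leukocyte markers at most 7.25 CPM. Vipr1 was read in every group, with Vipr2 and Adcyap1r1 at 0 UMIs in the untreated sorted cells of both experiments. Irradiation raised 9 of 10 p53 response genes in untreated cells. In bulk samples, fewer cells of a type and less RNA per cell cannot be told apart.

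One pair of libraries stood apart. Whole organoid cultures were sequenced as 2 technical libraries, whose UMIs were summed, apart from untreated mouse 3 with 1 library. Across genes that passed the expression filter, the pair of VIP-treated mouse 3 correlated at r = 0.932 (log2 CPM), where the other 5 pairs had 0.980 to 0.987. The second library of VIP-treated mouse 3 was most like a library of untreated mouse 1 (r = 0.981), and the first was most like untreated mouse 3 (r = 0.971). The library nearest to the second library was thus of another mouse and without VIP. Libraries of some other pairs also had their nearest library outside the pair, so the nearest library alone does not place a sample. Whether the second library was mislabelled cannot be told from the counts. This library is summed into VIP-treated mouse 3 in the values below, as labelled. Results of whole organoids are therefore also given without each of these 2 libraries.

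In untreated whole organoids Areg had the highest mean of the 10 genes, 78.5 CPM ± 24.1 (SD, n = 3), followed by Errfi1 at 50.8 ± 6.64, Lrig1 at 46.8 ± 9.33, Erbb3 at 41.1 ± 18.8 and Erbb2 at 32.4 ± 15.4 CPM. Then came Hbegf at 20.4 ± 4.50, Egfr at 19.0 ± 8.004, Btc at 17.5 ± 4.44, Tgfa at 6.52 ± 2.49 and Ereg at 1.97 ± 1.67 CPM. The ranges of neighbours in this order overlapped, except between Btc and Tgfa and between Tgfa and Ereg. Areg made up 60.5% to 65.4% of the summed UMIs of the 5 ligands.

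The first question was what VIP does to these genes in whole organoids. Levels of Areg, Ereg, Hbegf and Btc, 4 of the 5 ligands, rose with VIP, by 1.52-fold to 2.75-fold. The 2.75-fold is that of Ereg, which passed the expression filter through its VIP-treated samples. None of the 3 receptors passed the test, nor did the feedback inhibitors. In edgeR's quasi-likelihood test with the mouse as a block and Benjamini-Hochberg adjustment over 12727 genes, 4 of 10 genes of the family were called higher and 0 lower at an adjusted p of 0.05 or less. Over all genes tested, 4.82% were called and 3.72% were called higher. The 10 genes were chosen with earlier results of these data known, so these shares give no chance expectation for them. The median log2 fold change of the 10 genes was 0.48 and that of all genes 0.00.

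Areg (amphiregulin) was at 96.0, 88.4 and 51.0 CPM in untreated mice 1, 2 and 3, and at 188, 248, 100.2 and 163 CPM in VIP-treated mice 1 to 4. Every VIP-treated sample lay above every untreated one, with mouse 3 lowest in both groups. This 2.22-fold rise was 1.15 on the log2 scale, with SE 0.12 and an adjusted p of 5.29e-05, and was seen in 3 of 3 mice.

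Ereg (epiregulin), the least abundant ligand, was at 1.21, 3.88 and 0.806 CPM in untreated mice 1 to 3 and at 4.41, 8.78, 2.69 and 5.48 CPM in VIP-treated mice 1 to 4. The groups overlapped, since untreated mouse 2 lay above VIP-treated mouse 3, but within each mouse the treated sample was higher. The untreated values rest on 7, 19 and 3 UMIs. On the log2 scale the rise was 1.46, with SE 0.32 and an adjusted p of 0.0165. Ereg passed the expression filter through its VIP-treated samples, the group in which it is higher, and its call is limited by that. It was not tested when at least 10 counts were asked of every sample.

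Hbegf (heparin-binding EGF-like growth factor) was at 20.1, 25.1 and 16.1 CPM in untreated and at 37.7, 40.7, 22.1 and 32.1 CPM in VIP-treated organoids. Only VIP-treated mouse 3 fell within the range of the untreated samples. Hbegf rose by 0.71 on the log2 scale, with SE 0.14 and an adjusted p of 0.00876.

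Btc (betacellulin), the neighbour of Areg, was at 20.4, 19.6 and 12.4 CPM untreated and at 26.3, 31.3, 22.1 and 24.1 CPM with VIP. The groups did not overlap. Btc rose by 0.60 on the log2 scale, with SE 0.15 and an adjusted p of 0.0289.

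Tgfa (transforming growth factor alpha), which lies outside the chromosome 5 cluster, was at 9.01, 6.53 and 4.03 CPM untreated and at 11.3, 13.3, 8.06 and 8.40 CPM with VIP. It was higher with VIP in 3 of 3 mice with overlapping groups. Its log2 fold change of 0.73 (95% interval 0.26 to 1.21) was of the size seen for Hbegf, but its adjusted p was 0.0864. The 5 ligands together summed to 84.3 to 147 CPM in untreated and 155 to 342 CPM in VIP-treated samples, and Areg was 64.6% to 72.5% of that sum with VIP.

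**Figure D1:**
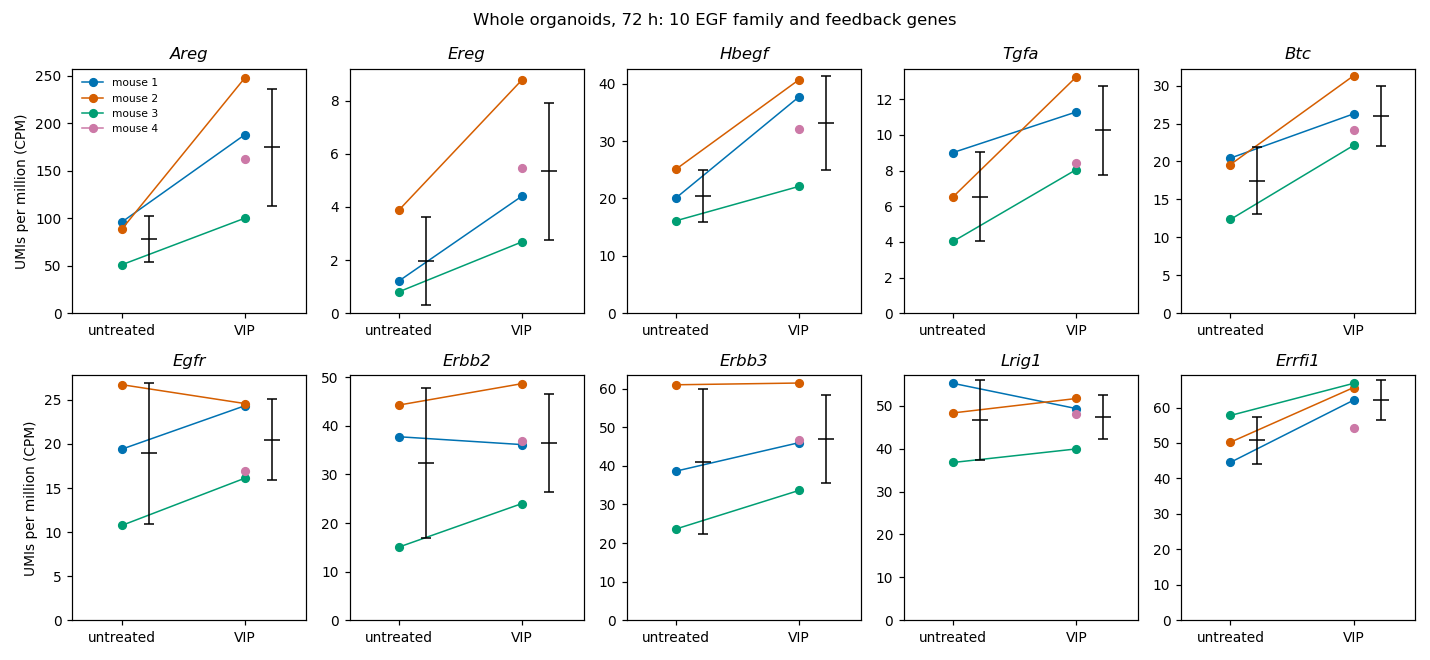
Levels of the 10 genes in whole organoids, in CPM, without and with 72 h of VIP. Points are samples, lines join samples of a mouse, and black bars give mean and SD; lines of the 5 ligands in the upper row rise in all 3 mice, as do those of Erbb3 and Errfi1, while Egfr, Erbb2 and Lrig1 rise in 2 of 3.

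The receptors did not pass the test, and whether they differed from the ligands in response was not tested. Egfr was at 19.4, 26.7 and 10.7 CPM untreated and at 24.3, 24.6, 16.1 and 17.0 CPM with VIP, and its log2 fold change was 0.22 (95% interval −0.13 to 0.56, adjusted p = 0.568). Erbb2 was at 37.8, 44.3 and 15.04 CPM untreated and 36.1, 48.7, 24.0 and 36.9 CPM with VIP, a log2 fold change of 0.19 (−0.10 to 0.48, adjusted p = 0.546). Erbb3, the kinase-impaired partner of Erbb2, was at 38.6, 61.0 and 23.6 CPM untreated and 46.0, 61.5, 33.6 and 46.7 CPM with VIP, a log2 fold change of 0.23 (−0.03 to 0.48, adjusted p = 0.371). For all 3 receptors the groups overlapped and mouse 3 was lowest in both.

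Of the feedback inhibitors, Lrig1 was at 55.3, 48.4 and 36.8 CPM untreated and at 49.4, 51.7, 40.0 and 48.2 CPM with VIP, with a log2 fold change of 0.01 (95% interval −0.23 to 0.24, adjusted p = 0.987). Errfi1 was at 44.5, 50.2 and 57.8 CPM untreated and at 62.1, 65.6, 66.8 and 54.2 CPM with VIP. It was higher in 3 of 3 mice, with a log2 difference of 0.35, SE 0.11 and an adjusted p of 0.0928. Untreated mouse 3, the sample with the lowest level of the other 9 genes, had the highest level of Errfi1 among untreated samples.

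These calls depended on the paired fit and on 1 library. Without the mouse as a block 0 of the 10 genes passed (5 at an unadjusted p under 0.05), with Areg at a log2 fold change of 1.15 and an adjusted p of 0.138. DESeq2's Wald test called 1 gene, Areg, with 5 at an unadjusted p under 0.05. Without the second library of VIP-treated mouse 3, 5 genes passed, and Errfi1 joined the 4 ligands (log2 fold change 0.46, adjusted p = 0.00403). Without the first library of that culture edgeR called 0 of the 10 and 0 of all 12748 genes tested (5 and 720 at an unadjusted p under 0.05), with Areg at a log2 fold change of 1.05 and an adjusted p of 0.256. Without mouse 1 or without mouse 2, Areg alone remained past the threshold, and without mouse 3 there were 6 genes, the 4 ligands, Tgfa (0.67, adjusted p = 0.0342) and Errfi1 (0.45, adjusted p = 8.86e-04).

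The technical libraries show the values behind this. In the first library of VIP-treated mouse 3 Areg was at 110.5 CPM, Hbegf at 26.3, Erbb2 at 17.5 and Errfi1 at 82.6 CPM. In the second they were at 83.8, 15.5, 34.3 and 41.7 CPM. The single library of untreated mouse 3 had 51.0, 16.1, 15.04 and 57.8 CPM for the same genes. The 4 untreated libraries of mice 1 and 2 had 80.4 to 112 CPM of Areg, 18.2 to 27.2 of Hbegf, 30.9 to 44.9 of Erbb2 and 42.6 to 53.4 of Errfi1. The second library of VIP-treated mouse 3 lay within these ranges for Areg and Erbb2 and below them for Hbegf and Errfi1.

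**Figure D2:**
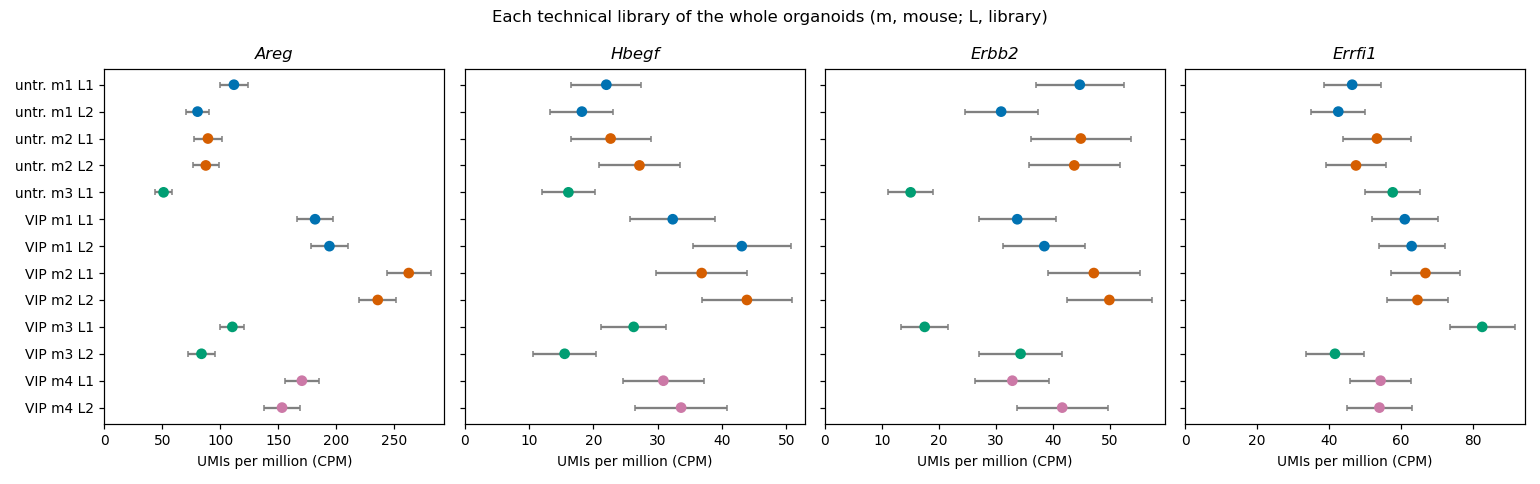
Levels of 4 genes in each of the 13 technical libraries of whole organoids, in CPM, with colour for the mouse and bars for the 95% Poisson counting error. The second library of VIP-treated mouse 3 is at 34.3 CPM for Erbb2 and 41.7 for Errfi1, where the first is at 17.5 and 82.6.

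Other genes of the pathway were grouped by role, and 53 of 61 could be tested in whole organoids. With VIP 7 rose and 0 fell, and 14 had an unadjusted p under 0.05, with a median log2 fold change of 0.03, where 3.72% of all genes were called higher. DESeq2 called 4 of the 53, of which 3 were ERK-responsive genes and 1 a negative regulator. Of the 14 genes known to respond to ERK, 5 rose, with a median of 0.47. Plaur, the urokinase receptor, had the smallest p and rose by 1.34 on the log2 scale, with SE 0.15 and an adjusted p of 8.45e-05. The AP-1 subunits Fos (0.98, SE 0.15, adjusted p = 0.00146) and Junb (0.63, SE 0.10, adjusted p = 0.00155) and the early response gene Ier3 (0.90, SE 0.18, adjusted p = 0.00890) also rose. Among 17 negative regulators of ErbB and ERK signalling 1 rose, the ERK phosphatase Dusp6 (0.83, SE 0.14, adjusted p = 0.00269). Of 16 adaptors and kinases of the Ras cascade 1 rose, and 0 of 5 genes of ligand shedding and 0 of the 1 further ligand tested passed.

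Markers of other epithelial cell types moved in the same samples. Of the 5 general epithelial markers Vil1, Krt8 and Krt18 rose with VIP, and the sum of the 5 went from 3465 to 3869 CPM in untreated to 4331 to 4729 CPM in treated samples. All 5 goblet cell markers rose with VIP in whole organoids, from a summed 1783 to 2025 CPM to 2994 to 3273 CPM. Summed enterocyte markers were at 15150 to 17690 CPM untreated and 12670 to 15720 CPM with VIP, with 2 of 7 lower and 1 higher, and 1 of 5 enteroendocrine markers, Cck, rose (log2 fold change 0.53, adjusted p = 0.00686). None of the 6 stem cell and 5 Paneth cell markers passed (2 of each at an unadjusted p under 0.05 and 0 of each in DESeq2). The part of these cell types in the ligand values was not tested.

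The second question was whether sorted Lgr5-EGFP+ cells show the same. Stem cell markers summed to 4106 to 5806 CPM in untreated sorted cells, against 2425 to 4294 CPM in untreated whole organoids, and enterocyte markers to 1156 to 2655 CPM. Lgr5, which is part of that stem cell sum, did not follow it. Its level was 50.6, 39.3, 13.2 and 36.6 CPM in untreated sorted cells and 102, 87.8 and 42.4 CPM in untreated whole organoids. With at most 1104126 UMIs per sample, the ligands were read thinly, and only 5 of the 10 genes passed the expression filter, Hbegf, Erbb2, Erbb3, Lrig1 and Errfi1. Of these, 0 passed edgeR's test (0 at an unadjusted p under 0.05, 0 in DESeq2), where 0.0885% of 6778 genes were called.

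Areg in sorted cells was at 5.06, 64.8, 4.93 and 36.6 CPM in untreated mice 1 to 4 and at 2.72, 57.4, 8.51 and 14.3 CPM with VIP, on 3 to 56 UMIs. Mouse 2 was highest in both groups, and VIP-treated cells were higher than untreated cells in 1 of 4 mice. A rise like that of whole organoids was not seen, but with 3 UMIs in several samples a fold change within those mice was not detectable at this depth.

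Hbegf was at 21.9, 21.97, 21.4 and 9.54 CPM untreated and at 13.6, 8.69, 17.0 and 12.7 CPM with VIP, lower with VIP in mice 1, 2 and 3. The log2 fold change was −0.56 (95% interval −1.30 to 0.18, adjusted p = 0.918). Btc was at 8.44, 34.7, 9.86 and 9.54 CPM untreated and 17.2, 10.4, 15.3 and 1.58 CPM with VIP, with no common direction among the mice. Tgfa was at 0 to 6.94 CPM untreated and 3.48 to 9.96 CPM with VIP, on at most 11 UMIs. Ereg had 0 UMIs in all 4 untreated samples, which allows up to 1.11 CPM over the group, and 1, 1, 0 and 1 UMIs with VIP.

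Erbb2 in sorted cells was at 23.6, 21.97, 11.5 and 22.3 CPM untreated and 26.3, 26.1, 23.8 and 31.7 CPM with VIP. The groups did not overlap and all 4 mice were higher with VIP, but on 7 to 29 UMIs a sample. The log2 fold change was 0.41 (95% interval −0.21 to 1.02, adjusted p = 0.935). Erbb3 was at 37.1, 35.9, 13.2 and 14.3 CPM untreated and 27.2, 38.2, 40.9 and 23.8 CPM with VIP (0.34, −0.27 to 0.95, adjusted p = 0.951). Egfr was at 15.2, 26.6, 3.29 and 12.7 CPM untreated and 17.2, 6.95, 6.81 and 17.4 CPM with VIP, with overlapping groups.

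Lrig1 had the highest mean of the 10 genes in untreated sorted cells, 51.9 CPM ± 15.8 (SD, n = 4), although the neighbours in that order overlapped. It was at 60.7, 62.5, 55.9 and 28.6 CPM untreated and 65.2, 57.4, 78.3 and 36.4 CPM with VIP, a log2 fold change of 0.16 (−0.27 to 0.58, adjusted p = 0.967). Errfi1 was at 38.8, 50.9, 47.7 and 12.7 CPM untreated and 33.5, 48.7, 25.5 and 17.4 CPM with VIP, with mouse 4 lowest in both groups (−0.26, −0.80 to 0.28, adjusted p = 0.951). Neither inhibitor passed the test, and both intervals leave room for a change in either direction. Of the other pathway genes 28 of 61 were tested, and 0 passed (2 at an unadjusted p under 0.05, 0 in DESeq2). In the same cells the goblet cell markers summed to 1494 to 2089 CPM untreated and 950 to 1370 CPM with VIP, with 1 of 4 tested called lower, and their part in the ligand values was not tested.

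**Figure D3:**
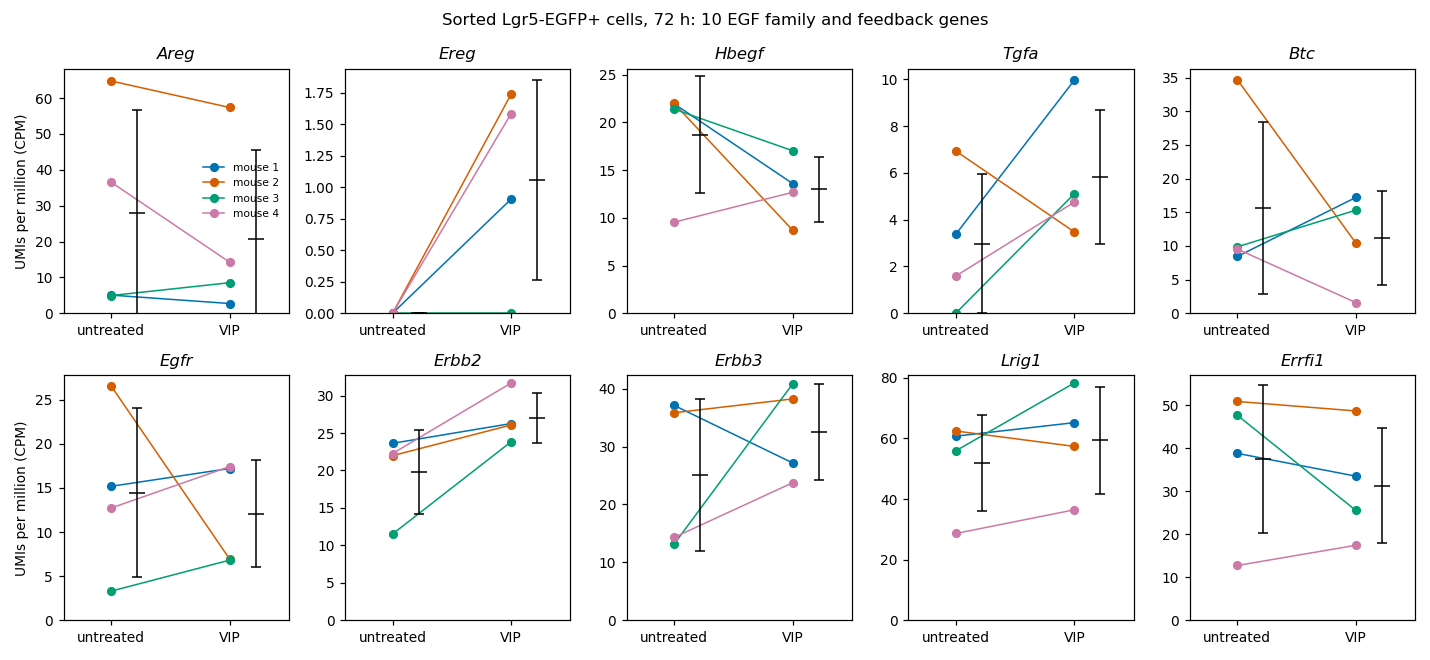
Levels of the 10 genes in sorted Lgr5-EGFP+ cells, in CPM, without and with 72 h of VIP. Points are samples, lines join samples of a mouse, and black bars give mean and SD, cut off at 0; Areg runs from 2.72 to 64.8 CPM with mouse 2 highest in both groups, and Ereg is at 0 in all 4 untreated samples.

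The difference between the 2 responses was tested as an interaction over both experiments. Of 9 genes tested 0 passed in edgeR's test (4 at an unadjusted p under 0.05, and 1, Areg, in DESeq2), where 0.147% of 10186 genes were called. The log2 response of Areg was 1.59 lower in sorted cells than in whole organoids (SE 0.34, 95% interval of the difference −2.30 to −0.88, adjusted p = 0.0675). It passed with DESeq2 (adjusted p = 0.0162), without the second library of VIP-treated mouse 3 (0.0260), without the mice numbered 3 (0.00358) and over all genes with any count (8.93e-04). It did not pass under the other 8 alternatives in which it was tested, with adjusted p from 0.0555 to 0.9999, the latter without the mouse as a block. Areg, Btc, Tgfa and Egfr had not passed the filter in sorted cells alone and entered this fit through the whole organoids, so the sorted arm of the Areg difference rests on 3 to 56 UMIs a sample. Of the genes that passed the filter in both, Hbegf (−1.27, SE 0.37, adjusted p = 0.347) and Errfi1 (−0.61, SE 0.27, adjusted p = 0.753) had an unadjusted p under 0.05. Btc was at −1.02 (SE 0.47, adjusted p = 0.755), on 1 to 30 UMIs a sample in sorted cells. Compartment, mouse strain and experiment cannot be told apart in this comparison. Goblet cell markers moved with it, 3 of 5 being called lower. Between untreated whole organoids and untreated sorted cells, 43.5% of genes had groups that did not overlap, and 0 of the 9 family genes tested did.

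The third question was how irradiation bears on these genes, and whether VIP changes that. Stem cell markers of the unirradiated, untreated cells summed to 3341 to 4341 CPM, which overlaps the 2425 to 4294 CPM of untreated whole organoids. Lgr5 was at 28.3, 25.9, 12.2 and 15.1 CPM, below the 42.4 to 102 CPM of untreated whole organoids. Enteroendocrine markers summed to 2303 to 3000 CPM, against 688 to 779 CPM there, and enterocyte markers to 1688 to 2201 CPM, against 15150 to 17690 CPM. In unirradiated, untreated cells of this experiment Areg had the highest mean, at 54.8 CPM ± 8.80 (SD, n = 4), followed by Hbegf at 50.8 ± 14.5, Errfi1 at 46.6 ± 1.65 and Lrig1 at 27.9 ± 7.27 CPM. Areg, Hbegf and Errfi1 overlapped, and Lrig1 lay below the range of all 3. Ereg, at 0 to 5 UMIs a sample, and Tgfa, at 1 to 9 UMIs, did not pass the filter, so that 8 of the 10 genes were tested. The comparisons of this experiment share control samples, so their values are given side by side.

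After 6 Gy, 1 of the 8 genes, Areg, rose in untreated cells and 3, Areg, Hbegf and Btc, rose in VIP-treated cells, with 0 lower in either. Among all 9976 genes tested, 4.46% were called in untreated cells (2.87% higher) and 7.78% in VIP-treated cells (4.32% higher). DESeq2 called the same numbers, 1 and 3. The median log2 change of the 8 genes was 0.29 in untreated and 0.36 in VIP-treated cells, and that of all genes 0.00 in both.

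Areg was at 66.0, 53.7, 44.5 and 55.1 CPM in untreated mice 1 to 4 without irradiation and at 121, 135, 113 and 169 CPM after it. With VIP it was at 65.3, 41.8, 44.8 and 40.2 CPM without irradiation and at 93.8, 162, 88.3 and 145 CPM after it. All 8 irradiated samples lay above all 8 unirradiated ones. In untreated cells this was a rise of 1.29 on the log2 scale, or 2.44-fold, with SE 0.16 and an adjusted p of 1.62e-05. In VIP-treated cells it was 1.32, or 2.49-fold, with SE 0.17 and an adjusted p of 7.28e-06, each in 4 of 4 mice.

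Btc was at 13.8, 8.63, 7.78 and 8.52 CPM in untreated cells without irradiation and at 15.3, 18.8, 13.9 and 16.9 CPM after it. With VIP it was at 8.26, 11.2, 7.03 and 13.4 CPM without irradiation and at 14.9, 28.0, 22.4 and 21.6 CPM after it. Neither pair of groups overlapped, with untreated mouse 1 highest of the unirradiated samples. Untreated cells differed by 0.75 on the log2 scale, with SE 0.26 and an adjusted p of 0.106, and VIP-treated cells by 1.08, with SE 0.24 and an adjusted p of 0.00464. Without mouse 1 the change in untreated cells was 1.001 with an adjusted p of 0.0306, and without mouse 3 that in VIP-treated cells was 0.92 with an adjusted p of 0.0689.

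Hbegf was at 38.3, 53.7, 41.1 and 70.1 CPM in untreated cells without irradiation and at 47.6, 78.1, 51.1 and 73.1 CPM after it. With VIP it was at 24.8, 47.0, 42.8 and 54.2 CPM without irradiation and at 61.3, 72.7, 50.01 and 77.6 CPM after it. Groups overlapped in both arms, while all 4 mice were higher after irradiation in each. Untreated cells differed by 0.32 on the log2 scale, with SE 0.13 and an adjusted p of 0.203. VIP-treated cells differed by 0.63, with SE 0.13 and an adjusted p of 0.00324, or 0.0767 without the mouse as a block. The 5 ligands together summed to 95.1 to 138 CPM in unirradiated and 182 to 266 CPM in irradiated untreated cells, and to 95.9 to 110.2 and 167 to 267 CPM in VIP-treated cells.

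**Figure D4:**
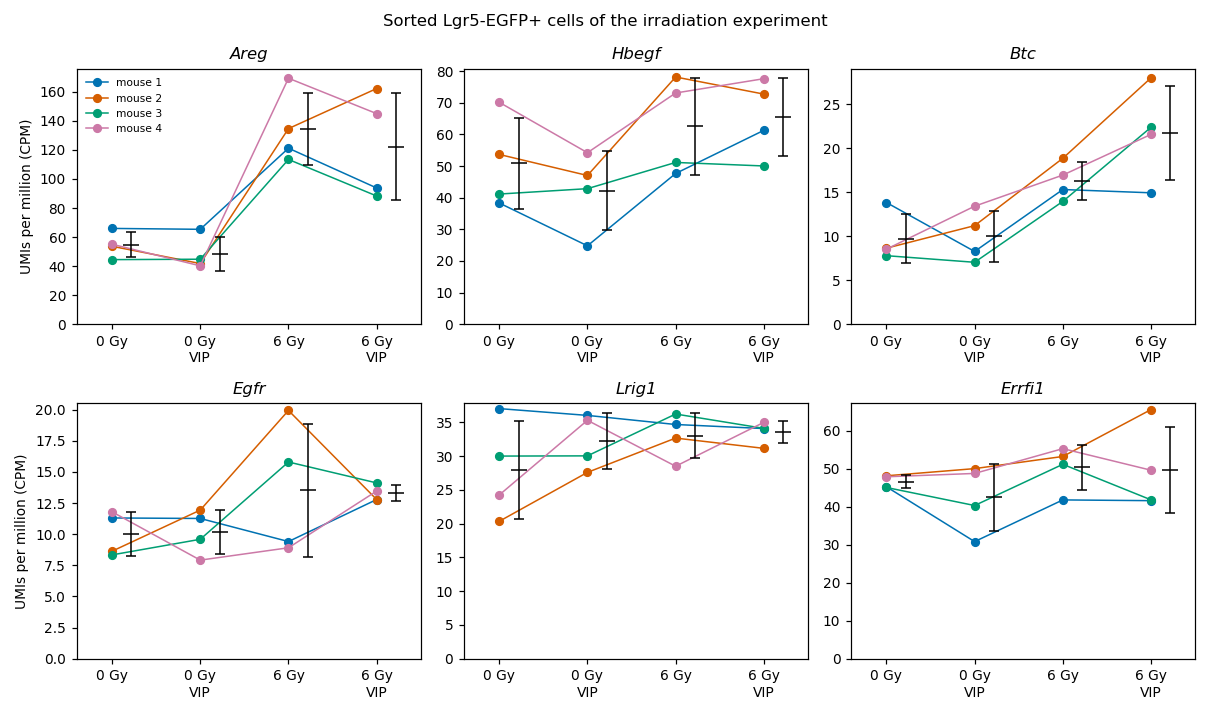
Levels of 6 genes in sorted Lgr5-EGFP+ cells of the irradiation experiment, in CPM, without irradiation and after 6 Gy, each without and with VIP. Points are samples, lines join samples of a mouse, and black bars give mean and SD; the 8 irradiated samples of Areg (88.3 to 169) lie above the 8 unirradiated ones (40.2 to 66.0).

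The receptors did not pass in either arm. Egfr was at 11.3, 8.63, 8.34 and 11.8 CPM in untreated cells and 9.41, 19.9, 15.8 and 8.91 CPM after irradiation, higher in mice 2 and 3 and lower in mice 1 and 4 (log2 fold change 0.44, 95% interval −0.11 to 0.99, adjusted p = 0.439). With VIP it was at 11.3, 11.9, 9.59 and 7.92 CPM and, after irradiation, at 12.8, 12.8, 14.1 and 13.5 CPM, higher in 4 of 4 mice without overlap (0.40, −0.14 to 0.94, adjusted p = 0.401). Each of these Egfr values rests on 10 to 36 UMIs.

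Erbb2 was at 7.23 to 13.2 CPM in untreated cells and 7.13 to 10.6 CPM after irradiation (log2 fold change −0.13, 95% interval −0.74 to 0.47, adjusted p = 0.883), and with VIP at 5.12 to 9.70 and 6.47 to 12.4 CPM (0.31, −0.30 to 0.93, adjusted p = 0.604). Erbb3 was at 11.1 to 17.7 CPM in untreated cells and 10.7 to 17.7 CPM after irradiation (−0.02, −0.53 to 0.49, adjusted p = 0.988), and with VIP at 7.92 to 20.3 and 11.8 to 15.5 CPM (0.07, −0.45 to 0.59, adjusted p = 0.914). The 3 receptors summed to 24.4 to 41.8 CPM over the 16 samples of this experiment.

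Lrig1 was at 37.1, 20.4, 30.0 and 24.3 CPM in untreated cells and at 34.7, 32.7, 36.3 and 28.5 CPM after irradiation (log2 fold change 0.26, 95% interval −0.06 to 0.58, adjusted p = 0.440). With VIP it was at 27.6 to 36.0 CPM and, after irradiation, at 31.2 to 35.0 CPM (0.05, −0.26 to 0.36, adjusted p = 0.904). Errfi1 was at 45.0 to 48.1 CPM in untreated cells and 41.8 to 55.2 CPM after irradiation (0.10, −0.17 to 0.37, adjusted p = 0.762), and with VIP at 30.8 to 49.99 and 41.6 to 65.5 CPM (0.20, −0.07 to 0.47, adjusted p = 0.402). The groups overlapped for both inhibitors, and the intervals leave room for changes of up to 0.58 for Lrig1 and 0.47 for Errfi1 on the log2 scale.

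VIP itself called 0 of the 8 genes in unirradiated cells, where 0.742% of all genes were called, and 0 of 8 in irradiated cells, where 0.221% were called, with 0 at an unadjusted p under 0.05 and 0 in DESeq2 in both. The log2 fold change of Areg with VIP was −0.20 (95% interval −0.58 to 0.18) in unirradiated and −0.17 (−0.47 to 0.13) in irradiated cells. Both intervals end well below the 1.15 measured in whole organoids, although mice, duration of VIP and compartment differ between those experiments. Hbegf was at −0.26 (−0.55 to 0.02) and 0.05 (−0.21 to 0.31), and Btc at 0.04 (−0.54 to 0.61) and 0.37 (−0.09 to 0.83). Cell type markers moved with VIP in these cells. The stem cell marker Olfm4 rose, by 0.57 on the log2 scale in unirradiated and 0.35 in irradiated cells. Of 7 enterocyte markers 2 fell in unirradiated and 1 in irradiated cells, and 1 of 5 goblet cell markers fell in irradiated cells. Of 5 Paneth cell markers 0 passed, with 5 at an unadjusted p under 0.05 in irradiated cells. Their part in the ligand values was not tested.

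Whether irradiation acts differently with VIP was tested as an interaction, in which 0 of 8 genes passed (0 at an unadjusted p under 0.05, 0 in DESeq2), as did 0% of all 9976 genes tested (634 at an unadjusted p under 0.05, 0 in DESeq2). The difference in the log2 response to irradiation, with VIP minus without, was 0.03 (95% interval −0.45 to 0.51) for Areg, 0.31 (−0.07 to 0.70) for Hbegf and 0.34 (−0.40 to 1.07) for Btc. That Hbegf and Btc passed with VIP and missed the threshold without it is therefore not shown to be a difference.

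**Figure D5:**
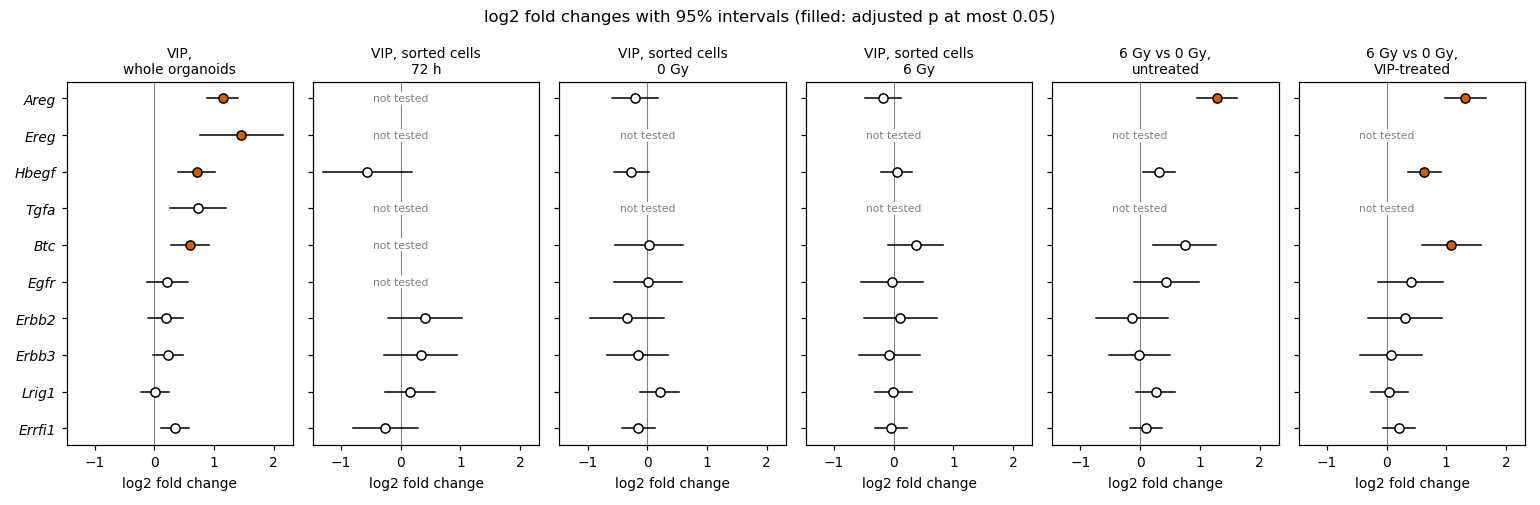
The log2 fold changes of the 10 genes in 6 comparisons, with 95% intervals; filled points have an adjusted p of 0.05 or less, and genes that did not pass the expression filter are marked as not tested. Areg is filled for VIP in whole organoids and for irradiation in both arms, and the 3 receptors are open wherever they were tested.

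Of the other pathway genes 47 of 61 were tested in this experiment. After irradiation 4 rose in untreated cells, all of them ERK-responsive genes: Plaur (log2 fold change 1.35, SE 0.24, adjusted p = 9.46e-04), the cell cycle gene Ccnd1 (0.45, SE 0.11, adjusted p = 0.0150), Junb (0.35, SE 0.09, adjusted p = 0.0151) and the AP-1 subunit Fosl1 (1.10, SE 0.29, adjusted p = 0.0296). In VIP-treated cells 5 rose: Ccnd1 (0.82, SE 0.11, adjusted p = 1.18e-05), Fosl1 (1.96, SE 0.33, adjusted p = 2.81e-04), Junb (0.36, SE 0.09, adjusted p = 0.00890), Plaur (0.95, SE 0.24, adjusted p = 0.0108) and the ubiquitin ligase gene Cblc (0.45, SE 0.13, adjusted p = 0.0345). None fell in either arm. DESeq2 called 3 in untreated and 4 in VIP-treated cells, and Cblc was not among the latter. The median of the 47 genes was 0.08 in untreated and 0.11 in VIP-treated cells, and VIP called 0 of them in either arm (5 without and 1 with irradiation at an unadjusted p under 0.05, 0 in DESeq2).

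Cell type markers also moved with irradiation. All 5 Paneth cell markers rose in both arms, from a summed 2738 to 4010 CPM to 4190 to 8419 CPM in untreated cells and from 2511 to 2791 CPM to 4289 to 4797 CPM with VIP. Goblet cell markers rose in 4 of 5 cases without and 2 of 5 with VIP, and enteroendocrine markers in 2 of 5 and 5 of 5. Of the 7 enterocyte markers Fabp1 and Apoa1 rose without VIP and 1 rose with VIP. Of the general epithelial markers Krt8 and Krt18 rose in both arms and Epcam fell in VIP-treated cells. Of the 6 stem cell markers 2 fell in each arm. In untreated cells they summed to 3341 to 4341 CPM without irradiation and to 2411 to 2756 CPM after it. The part of these cell types in the rise of Areg, Hbegf and Btc was not tested.

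Over 30 samples that have a partner from the same mouse, with log2 CPM centred within each mouse, the genes most like Areg among 6730 were Cdkn1a (Pearson's r = 0.886), Itgb4 (0.883), Muc2 (0.881), Npdc1 (0.876) and Ctsd (0.875). Samples of a mouse share an organoid line, so these values describe the pattern only. Areg itself did not pass the filter in the sorted cells of the 72 h experiment, where its values rest on 3 to 56 UMIs a sample. Of the family genes that passed it in all 3 experiments, Hbegf was at 0.597, Errfi1 at 0.352, Lrig1 at 0.290, Erbb3 at 0.224 and Erbb2 at 0.0976. Cdkn1a, the cell cycle inhibitor p21, and Muc2, the main goblet cell mucin, rose in the same 3 comparisons in which Areg passed. Their log2 fold changes were 0.58 and 0.66 with VIP in whole organoids. With irradiation they were 1.15 and 1.27 in untreated cells and 1.75 and 0.80 in VIP-treated cells. In the same order, Itgb4 (0.60, 0.82 and 0.75) and Ctsd (0.39, 0.58 and 0.70) also passed in all 3. Npdc1 passed only with irradiation of untreated cells (0.50). All of these genes were chosen by likeness to Areg over the same samples, so shared responses follow largely from that choice. Unlike Areg, Cdkn1a also passed with VIP in unirradiated cells, where it fell by 0.57 on the log2 scale (SE 0.10, adjusted p = 0.00497).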

How the data were processed

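Poly(A) RNA of 37 libraries was sequenced on a NextSeq 500 after oligo-dT priming with barcodes and UMIs. The deposited values are raw UMI counts of genes, which the authors obtained from GRCm38 alignments with GENCODE M25 through the Drop-seq pipeline 1.0 and left without normalization. There were 0 columns that matched no sample. Positions are those of GENCODE M21, and promoters those of RefSeq for GRCm38.

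Technical libraries of a culture were summed, giving 31 samples. Counts were tested in R 4.3.3 with edgeR 4.0.16: TMM factors, filterByExpr by group, and the quasi-likelihood test with the mouse as a block and Benjamini-Hochberg adjustment over all genes that passed the filter (threshold 0.05). Mouse 4 of the whole organoids has no untreated culture and adds nothing to the fold changes. CPM values use the total UMIs, and log2 values for the likeness to Areg use a prior count of 2. Standard errors come from the fitted change and its F statistic, intervals are at 95%, and a count of 0 allows up to 3 UMIs. Intervals on single counts cover counting error only. Samples were paired by the cell line label, which names the mouse. Deviations from the group means correlated at 0.266 to 0.634 within and −0.544 to 0.332 between mice in whole organoids, at 0.0298 to 0.214 and −0.144 to 0.150 in sorted cells, and at −0.0706 to 0.158 and −0.204 to 0.204 in the irradiation experiment.

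The members, the pathway lists and the markers were chosen with earlier results of these data known. All members are named in every comparison. Other pathway genes are named if past the threshold, at most 5 per comparison by smallest p, and the 5 genes most like Areg by correlation. Alternatives were RLE factors, library size only, DESeq2 1.42.0, other filters on low counts, no mouse block, leaving out each mouse, and leaving out technical libraries. The fits were tested on simulated data. With the mouse as a block, the level of each organoid line is taken out. P-values then rest on the spread of samples around the fitted mouse levels and treatment effects. The quasi-likelihood fit draws the spread of each gene towards that of other genes. Standard errors can therefore be smaller than those from the mice of 1 gene alone. The log2 difference of Areg within mice had SD 0.30 over 3 mice with VIP in whole organoids. With irradiation of VIP-treated cells its SD was 0.68 over 4 mice.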

Additional observations from a re-analysis of the deposited data

Results flagged for a closer look

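Among 69 groups of 4 samples, 5 held a sample far from the other 3 by Dixon's test, where chance gives about 1 in 20 groups. In untreated sorted cells of the 72 h experiment, Hbegf in mouse 4 was at 9.54 CPM (others 21.4 to 21.97), Btc in mouse 2 at 34.7 CPM (others 8.44 to 9.86) and Erbb2 in mouse 3 at 11.5 CPM (others 21.97 to 23.6). In untreated, unirradiated cells of the irradiation experiment, Btc in mouse 1 was at 13.8 CPM (others 7.78 to 8.63) and Ereg in mouse 4 at 1.31 CPM (others 0.556 to 0.628), the latter on 2 UMIs against 1.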

How the results depend on the processing

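No value changed direction while called. With VIP in whole organoids 4 of the 10 genes were called, against 1 in DESeq2, 0 with no replicate block, 0 without the first library of VIP-treated mouse 3, and 1 to 6 leaving out each mouse. With irradiation of untreated cells 1 was called, and 1 to 2 leaving out each mouse. The difference between compartments called 0, and 1 with any count, in DESeq2 and without the second library of VIP-treated mouse 3, and 0 to 1 leaving out each mouse. Over all genes, VIP in whole organoids called 614, against 300 in DESeq2, 979 with any count, 99 without the block, 377, 363 and 1668 without mice 1, 2 and 3, and 1261 or 0 without the second or first library of VIP-treated mouse 3. Sorted cells called 6, against 2 in DESeq2, 14 by library size only, 17 with any count, 11 with at least 10 counts, 1 without the block and 3 to 17 leaving out each mouse. VIP in unirradiated cells called 74, against 182 with any count, 34 without the block and 32 to 42 leaving out each mouse. VIP in irradiated cells called 22, against 12 in DESeq2, 110 with any count, 12 without the block, 52 in irradiated cells alone and 5 to 35 leaving out each mouse. Irradiation called 445 in untreated and 776 in VIP-treated cells, against 281 and 489 in DESeq2 and 176 to 643 and 426 to 691 leaving out each mouse. The interaction of VIP and irradiation called 0, against 34 with any count and 0 to 1 leaving out each mouse. The compartments called 15, against 57 with any count, 7 with at least 10 counts, 9 by library size only, 0 without the block, 4 to 41 leaving out each mouse, 28 with the first library of each culture only, and 27 or 1 without the second or first library of VIP-treated mouse 3. The cause of these shifts was not tested. In the sorted cells, depth limits Areg, Ereg, Tgfa, Btc and Egfr, which did not pass the filter.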
